A study of Bos taurus with 30 samples.

Results

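The 2 mature arms of miR-126, bta-miR-126-5p and bta-miR-126-3p, were taken by name from the 1030 bovine miRNAs measured in the anterior pituitary, which makes the hormones of growth, reproduction and stress. Small RNA was sequenced from 30 Holstein-Friesian bull calves killed at 12 weeks of age, 1 library per calf. From 2 weeks of age the 15 HI calves were given 1.5 kg of milk replacer in 10 litres per day with concentrate ad libitum, and the 15 MOD calves 0.5 kg in 4 litres with up to 0.5 kg of concentrate. All calves also had hay and water, and they came from several farms and sires over which the diets had been balanced. The tissue was whole anterior pituitary, so each value is an average over endocrine, vascular, connective and blood cells.

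miR-126 is the miRNA best known from endothelial cells, the lining of blood vessels, and it also occurs in platelets and blood progenitor cells. Its hairpin lies in an intron of EGFL7, a gene for a protein that endothelial cells secrete, and either arm can be loaded into the silencing complex. The 3p arm is known for repressing SPRED1 and PIK3R2, which dampen signalling from the receptor for vascular endothelial growth factor, and the 5p arm for repressing DLK1, an inhibitor of Notch signalling. The anterior pituitary is densely supplied with capillaries that carry releasing hormones in from the hypothalamus and pituitary hormones out. In the RefSeq annotation of the bovine assembly ARS-UCD2.0, which is not the build used for these reads, MIR126 lies inside EGFL7 and the gene after it is AGPAT2. Both arms matched that 1 gene. The label endothelial could not be tested in these data, since the list of endothelial miRNAs held miR-126 alone and small RNA libraries do not carry the mRNA markers of endothelium.

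The libraries held 6650492 to 11086524 reads on miRNAs. Values are CPM (reads per 1e+06 reads on miRNAs) scaled by TMM factors, which correct for differences in composition between libraries, and the reads behind them were recovered from the values. Mature miRNAs are of nearly 1 length, so no correction for length was made. Levels of different miRNAs were compared in CPM, that is, as reads counted. How evenly the library preparation captured different sequences was not measured. A set of 9 libraries stood apart in other miRNAs. They belonged to 5 HI and 4 MOD calves, those whose label numbers were highest, and miR-99b in them was at 6407 to 9694 CPM against 4116 to 5185 CPM in the other 21 (10 HI and 11 MOD). That set was chosen from the values in an earlier analysis, so differences between the sets are described here without a test, and diet results are given within each.

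Expression of miR-126-5p was high in all 30 libraries. Its mean of 11820 CPM was the 22nd highest of the 419 miRNAs that passed the filter on low counts, and made up 1.18% of the values of a library. The mean of miR-126-3p was 897 CPM, the 74th highest. Reads ran from 78855 to 157122 per library for the 5p arm and from 5681 to 11351 for the 3p arm, so that counting error alone would give a coefficient of variation of 0.315% and 1.14%. The coefficient of variation over the 30 calves was 10.97% for miR-126-5p and 10.6% for miR-126-3p, well above counting error. Most miRNAs varied more than this. The median over the 419 miRNAs was 19.8%, and the arms were 52nd and 44th from the steadiest. Low miRNAs carry more counting error, and among the 74 miRNAs at or above the level of miR-126-3p the median was 11.3%. The arms, at 33rd and 30th from the steadiest, were near the middle of these 74, of which miR-126-3p was the lowest in level.

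**Figure D1:**
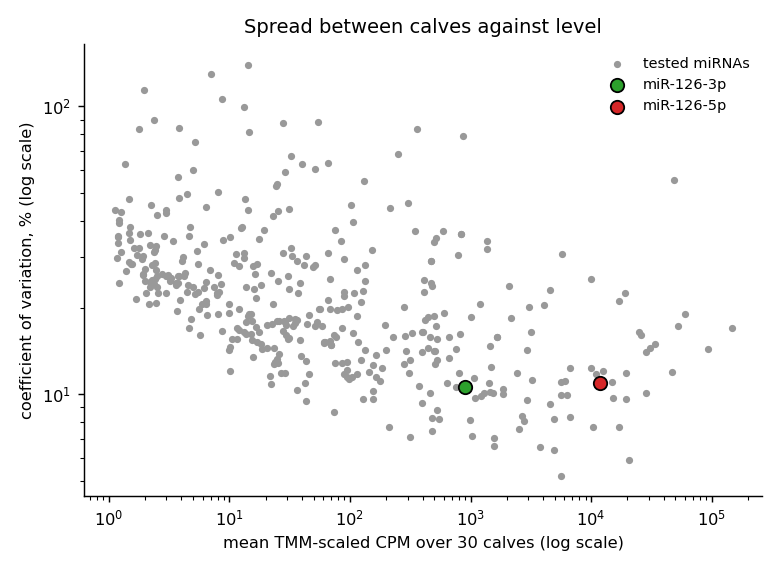
Coefficient of variation over 30 calves in percent (vertical, log scale) against mean TMM-scaled CPM (horizontal, log scale), with 1 point for each of the 419 tested miRNAs. Both arms of miR-126, at 10.97% and 10.6%, have levels of 11820 and 897 CPM. The median of the 74 miRNAs at or above the level of miR-126-3p was 11.3%.

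The first comparison asked whether the plane of nutrition changed the level of miR-126. In HI calves miR-126-5p ran from 8223 to 13942 CPM with a median of 11599, and in MOD calves from 10130.0 to 15135 CPM with a median of 12092. The ranges overlapped almost throughout, with 1 HI calf below every MOD calf and 1 MOD calf above every HI calf. The low calf, HI replicate 15, also had the highest TMM factor, 1.21, and the lowest share of both arms among HI libraries, 1.09% of its reads; the part of its composition in that value was not tested. For miR-126-3p, HI calves ran from 741 to 1009.9 CPM with a median of 892, and MOD calves from 706 to 1078 CPM with a median of 909.6. Here 1 MOD calf lay below every HI calf and 3 above, so MOD calves covered the wider range.

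Neither arm was differentially expressed between diets. The mean of bta-miR-126-5p was 11653 ± 1379.6 CPM for the 15 HI calves and 11987 ± 1233 CPM for the 15 MOD calves (± SD), and limma gave a log2 fold change of -0.04 with a standard error of 0.06 (FDR = 0.873, Benjamini-Hochberg adjustment over 419 miRNAs). For bta-miR-126-3p the means were 891 ± 81.4 CPM with HI and 903 ± 109.8 CPM with MOD feeding, and limma gave -0.02 with a standard error of 0.06 (FDR = 0.952). Above the MOD median lay 6 of the 15 HI calves for the 5p arm and 5 of the 15 for the 3p arm. The 95% confidence interval of the HI to MOD ratio was 0.891 to 1.06 for the 5p arm and 0.911 to 1.07 for the 3p arm, so a change of 1.5-fold in either direction, the size required for a call, lay outside both. With limma 0 of the 2 arms passed FDR < 0.1 and fold change > 1.5, against a background of 0.477% of the miRNAs tested, and 0 of the 2 had an unadjusted p under 0.05, against 12.6% of all. In edgeR's quasi-likelihood test, DESeq2 and limma-voom on the recovered reads it was likewise 0 of 2 on both counts. At FDR < 0.1 alone these tests passed 20, 24 and 16 of the 419 miRNAs, and 0 of the 2 arms. With so few miRNAs called, 0 of 2 does not set the arms apart from the rest. As the tissue is a mixture, the number of endothelial cells and the amount of miR-126 per cell cannot be told apart in these values.

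The sign of these small differences was not fixed. On total counts the log2 fold change was 0.02 for the 5p arm and 0.05 for the 3p arm. In the set of 21 libraries the log2 fold changes were 0.0040 for the 5p arm and -0.00099 for the 3p arm (limma, FDR = 0.986 and 0.992), and within the other 9 they were -0.15 and -0.08 (limma, FDR = 0.880 and 0.981). In CPM, the HI and MOD means of miR-126-5p were 11928 and 11931 over the 21, and 11102 and 12141 over the 9, where HI replicate 15 belongs. For miR-126-3p these means were 875 and 879 CPM over the 21, and 921 and 971 CPM over the 9. The difference between the sets in the effect of diet had an FDR of 0.854 for the 5p arm and 0.889 for the 3p arm (limma, interaction term).

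**Figure D2:**
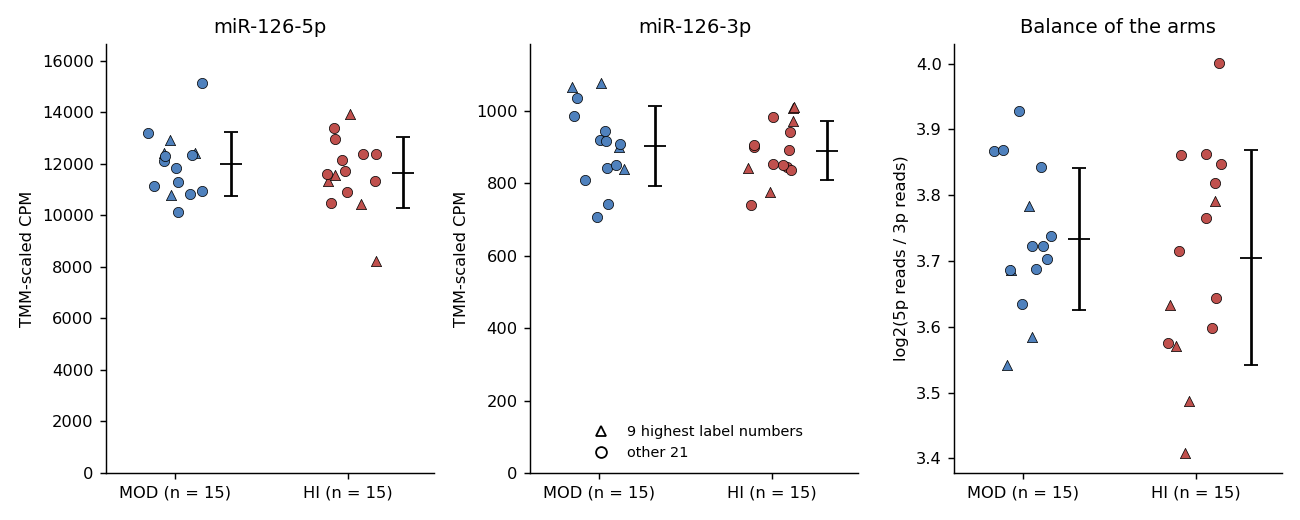
Values of miR-126-5p and miR-126-3p in TMM-scaled CPM and the balance of the arms as log2 of 5p reads over 3p reads, with 1 point per calf for MOD (blue) and HI (red), and bars for the mean and SD (n = 15 each). Triangles mark the 9 calves whose label numbers were highest. HI and MOD overlap in all 3 panels, and the lowest balances, down to 3.41, belong to triangles.

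The second comparison set the arms against each other within each library, a ratio that no scaling of the libraries can alter. The 5p arm had the more reads in all 30 calves. There were 13.2 ± 1.25 reads of the 5p arm for each read of the 3p arm (SD, n = 30), with a lowest value of 10.6 in HI replicate 15 and a highest of 16.0 in HI replicate 5. On the log2 scale the balance was 3.71 ± 0.16 for HI and 3.73 ± 0.11 for MOD calves (± SD, 15 each). The difference of -0.03 (95% confidence interval -0.13 to 0.08) did not stand out from those given by shuffled diet labels (two-sided permutation test, p = 0.581). HI calves held both ends of the range, with 2 below every MOD calf and 1 above. Within the 21 libraries the difference was 0.0050 (permutation test, p = 0.916), and within the 9 it was -0.07 (exact permutation test, p = 0.444). Between the sets of libraries the medians lay farther apart than between diets. The balance ran from 3.41 to 3.79 with a median of 3.59 in the 9 libraries, and from 3.57 to 4.00 with a median of 3.74 in the 21. The means of the arms differed between the sets in opposite directions, with values of 943 CPM in the 9 and 877 CPM in the 21 for miR-126-3p and of 11564 and 11929 CPM for miR-126-5p.

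A strong and steady excess of 1 arm was not peculiar to miR-126. Of the 31 hairpins with both arms tested under 5p and 3p names, the 5p arm was the higher in 20, and the excess of 3.72 for miR-126 (log2 scale, mean of the differences) was the 7th largest in favour of 5p. The SD of the balance over the 30 calves was 0.14 for miR-126, the 3rd lowest of the 31, whose median was 0.28. Weak arms with few reads raise this SD. Among the 5 hairpins with a median of at least 1000 reads on the weaker arm (miR-126, miR-129, miR-151, miR-423 and miR-99a), miR-126 was the 2nd lowest, after miR-151 at 0.12. The ratio is one of sequenced reads.

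Across calves the arms rose and fell together. On log2(CPM + 1) Pearson's r between the arms was 0.63 (permutation p = 9.0e-05) and Spearman's rho 0.59 (permutation p = 0.00072) over the 30 calves. Without the 2 calves farthest from the median of miR-126-3p r was 0.57 (permutation p = 0.00122). Within the 21 libraries r was 0.66 (permutation p = 0.00113) and within the 9 it was 0.82 (exact permutation p = 0.0040), so the relation held in both sets. It was 0.60 on total counts and 0.68 for deviations from the means of diet and label number range. Both values of a calf share 1 library and 1 scaling factor. Among the 31 hairpins this r was the 12th highest, with a range of -0.16 to 0.98 and a median of 0.43. Among the 5 with a median of at least 1000 reads on the weaker arm it was the 3rd highest, at their median of 0.63.

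**Figure D3:**
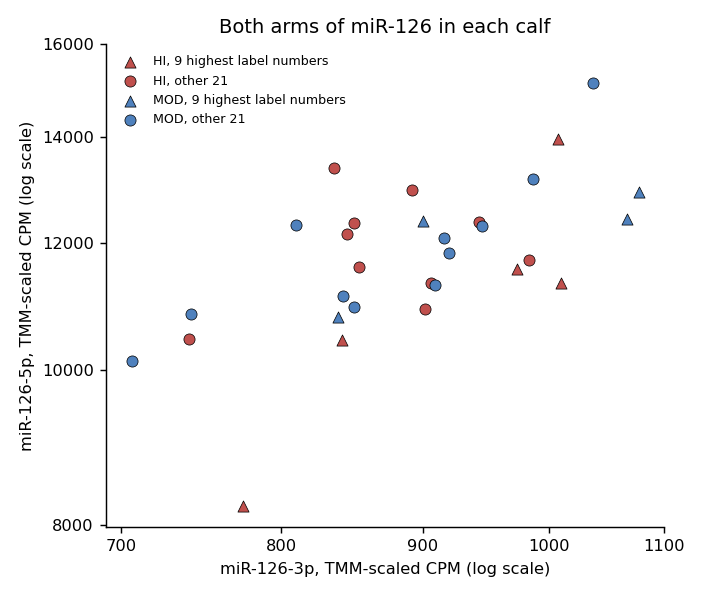
Level of miR-126-5p (vertical) against miR-126-3p (horizontal) in TMM-scaled CPM, both on log scales, with 1 point per calf, coloured by diet (HI red, MOD blue) and with triangles for the 9 highest label numbers. Calves with more of 1 arm had more of the other (Pearson's r = 0.63 over 30 calves), and circles and triangles overlap on both axes.

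The next question was whether miR-126 varied with miRNAs of other cell types of the gland. Each arm was set against 6 markers, which were miR-143 and miR-145 of vascular smooth muscle and pericytes, miR-199a-3p of fibroblasts, miR-486 of red blood cells, miR-375 of endocrine cells and miR-200b of epithelium. Of these 12 relations 1 passed FDR < 0.1 with Pearson's r, that of miR-126-5p with miR-200b, at r = 0.49 (permutation p = 0.00632, FDR = 0.0758) and rho = 0.51 (permutation p = 0.00405). It was 0.50 without the 2 calves farthest from the median of miR-200b. Within the 21 libraries r was 0.42 (permutation p = 0.0553) and within the 9 it was 0.70 (exact permutation p = 0.0353), with FDR values of 0.166 and 0.151 over the 12 relations, so by Pearson's r it did not pass within either set. Spearman's rho passed within the 21 (rho = 0.58, permutation p = 0.00696, FDR = 0.0436) and not within the 9 (rho = 0.55, exact permutation p = 0.133, FDR = 0.531). For deviations from the means of diet and label number range none of the 12 passed, and that of miR-126-5p with miR-200b was 0.38 (permutation p = 0.0364, FDR = 0.395). Each marker stood for 1 miRNA alone. Over the 6 epithelial miRNAs r with miR-126-5p ran from -0.05 (miR-429) to 0.49 (miR-200b), with a median of 0.32 and 1 below 0. A relation to epithelium as a whole was not tested.

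With the vascular and fibroblast markers the arms gave different values, and that difference was not tested. For miR-126-3p r was 0.35 with miR-143 (permutation p = 0.0603, FDR = 0.241), 0.12 with miR-145 (permutation p = 0.542, FDR = 0.723) and 0.35 with miR-199a-3p (permutation p = 0.0595, FDR = 0.241). Spearman's rho passed FDR < 0.1 for miR-143 (rho = 0.46, FDR = 0.0652) and miR-199a-3p (rho = 0.42, FDR = 0.0917). Without the 2 calves farthest from each marker's median the r of the 3p arm was 0.35 with miR-143, 0.14 with miR-145 and 0.47 with miR-199a-3p (FDR = 0.263, 0.681 and 0.0705), so that of miR-199a-3p then passed. For miR-126-5p the same markers gave r of 0.12, -0.16 and -0.05, with FDR of at least 0.629. Within the 21 libraries miR-126-3p had r of 0.50 with miR-143, 0.54 with miR-145 and 0.50 with miR-199a-3p, each with an FDR of 0.0818. Within the 9 the values were 0.28, -0.72 and -0.0016 (exact permutation p = 0.455, 0.0159 and 0.997). Their FDR values were 0.546, 0.151 and 0.997, so none passed there. The relation of miR-126-3p to these markers therefore did not hold within both sets. With miR-486 the r was 0.20 for the 3p arm and 0.28 for the 5p arm (FDR = 0.595 and 0.318), and with miR-375 it was 0.28 and 0.0052 (FDR = 0.318 and 0.979). Other red blood cell and endocrine miRNAs gave other values. With the 5p arm r was -0.11 for miR-451, -0.20 for miR-144 and 0.32 for miR-7. With the 3p arm these were -0.01, -0.14 and 0.14.

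The miRNAs most like each arm over the 30 calves are given as a description. On TMM-scaled CPM miR-126-5p was, of the 418 other tested miRNAs, the most like miR-126-3p. After it came miR-3431 (r = 0.57), miR-532 (0.46), miR-1307 (0.46), miR-767 (0.46) and miR-503-3p (0.45). For miR-126-5p the nearest was miR-181c, a miRNA known from immune and vascular cells, with r = 0.69, ahead of miR-126-3p at 0.63. Then came miR-2299-5p (0.56), miR-16a (0.50), miR-200b (0.49) and miR-30a-5p (0.45). Apart from the arms themselves, the lists of 5 had no miRNA in common. The values after the first were close together, and the order changed with the scaling. On total counts miR-503-3p (0.63) and miR-532 (0.61) lay above miR-126-5p (0.60) for the 3p arm. For the 5p arm miR-126-3p (0.60) then lay above miR-181c (0.59). Within the 21 libraries each of the 10 was lower than over all calves, from 0.19 for miR-1307 to 0.42 for miR-200b. Within the 9 libraries miR-503-3p was lower, at 0.41, and the others were higher, up to 0.89 for miR-181c with the 5p arm. The r between the arms was 0.66 within the 21 and 0.82 within the 9. Unlike the pair of arms, the 10 were picked for a high r over all 30 calves, and the differences between sets were not tested.

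**Figure D4:**
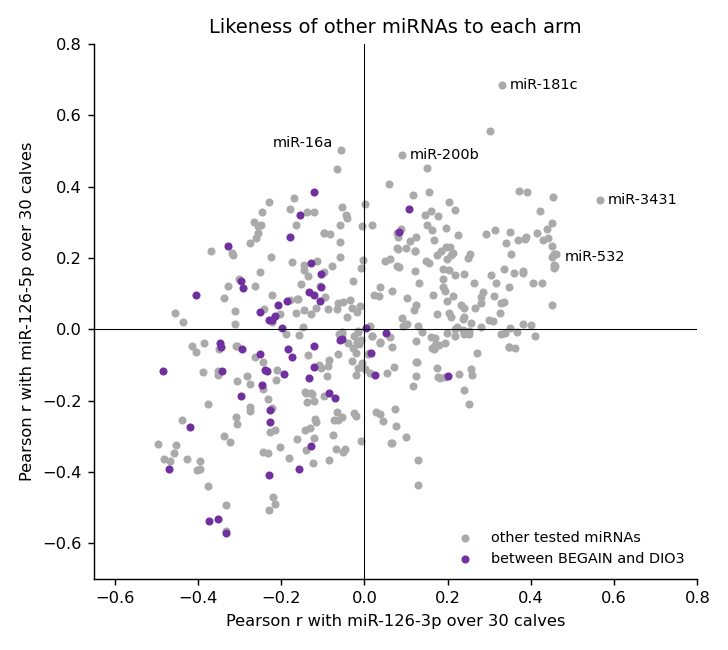
Pearson's r over 30 calves of each other tested miRNA with miR-126-3p (horizontal) and with miR-126-5p (vertical), on log2(CPM + 1). miR-181c lies highest at 0.69 with the 5p arm and miR-3431 farthest right at 0.57 with the 3p arm; purple points are miRNAs between the genes BEGAIN and DIO3, of which 50 of 57 lie left of 0.

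Other miRNAs linked to blood vessel growth were compared between diets in the same fit. Of the 28 tested members of that list, which holds the miR-17/92 cluster, the miR-23, miR-24 and miR-27 clusters, miR-221 and miR-222, the hypoxia-induced miR-210 and others, 1 was higher and 0 were lower in HI calves at FDR < 0.1, against 3.58% of all miRNAs tested (1.91% higher and 1.67% lower). Their median log2 fold change was -0.02, beside 0.02 for all 419. The 1 was miR-378, a miRNA from an intron of PPARGC1B that is known from energy metabolism, with 309 ± 57.6 CPM for HI and 254 ± 40.9 CPM for MOD feeding (± SD, 15 calves each) and a log2 fold change of 0.28 (FDR = 0.0874, limma), under the fold change threshold. Part of its reads is divided with near-identical miRNAs of its family. Next in the list were miR-210 with a log2 fold change of -0.15 (FDR = 0.224) and miR-92a with -0.13 (FDR = 0.269), neither of which passed. The range over the list, -0.15 to 0.28, did not reach a 1.5-fold change in either direction.

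Markers of the other cell types were counted in the same way, beside 3.58% of all 419 miRNAs past FDR < 0.1 and 230 of the 419 with a log2 fold change above 0. In the vascular smooth muscle and pericyte list 0 of 2 passed FDR < 0.1, with log2 fold changes of 0.12 for miR-143 and 0.04 for miR-145. The fibroblast list had 0 of 5 past FDR < 0.1, with all 5 above 0 and a median of 0.23; miR-199a-3p and miR-199c among them share nearly all reads. The white blood cell list had 0 of 5 past FDR < 0.1 (median 0.11), the pituitary endocrine list 0 of 2 (median -0.10), and the striated muscle and neural lists 0 of 4 and 0 of 1. In the epithelial list 1 of 6 was lower in HI calves, miR-205 of stratified epithelium, at -0.67 (FDR = 0.0424 from limma), while miR-141, miR-200a, miR-200b, miR-200c and miR-429 did not pass. The paper had already reported miR-205 as lower in HI calves. The red blood cell list had 0 of 3 past FDR < 0.1 with limma. The log2 fold changes were 0.55 for miR-451, 0.46 for miR-144 and -0.27 for miR-486 (limma, FDR = 0.190, 0.115 and 0.274). The paper, which used edgeR, reports both miR-451 and miR-144 as differentially expressed and higher in HI calves. The scale used here understates changes of low miRNAs, and the mean was 4.44 CPM for miR-144 and 130 CPM for miR-451. Whether the scale or the test accounts for the different calls was not tested. The liver marker miR-122 was at most 0.209 CPM and was not tested. The summed level of each list overlapped between diets, for miR-126 from 8998 to 14949 CPM in HI and from 10836 to 16172 CPM in MOD calves.

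**Figure D5:**
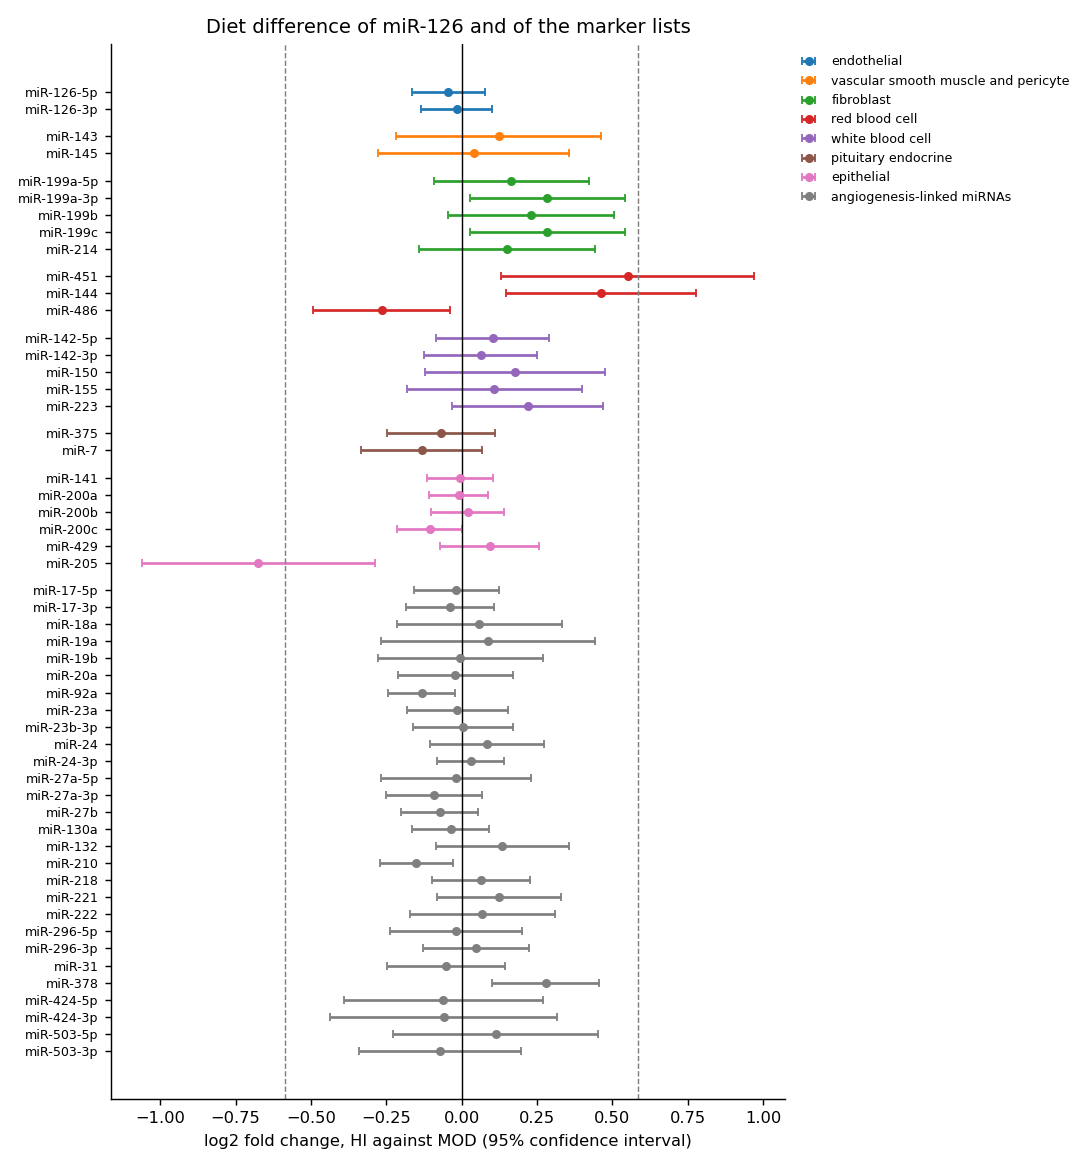
Log2 fold change of HI against MOD calves (horizontal, log2(CPM + 1) scale) with its 95% confidence interval from limma, with 1 row per miRNA for miR-126 and 7 of the marker lists; dashed lines mark a 1.5-fold change. Both arms of miR-126 lie at 0 with short intervals (-0.17 to 0.08 for 5p and -0.13 to 0.10 for 3p), and miR-205 is the only one of these miRNAs beyond a dashed line.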

How the data were processed

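Small RNA reads of 15 HI and 15 MOD calves were trimmed by the authors with Cutadapt, kept at miRNA length, cleared of other short RNAs and counted on known bovine miRNAs of miRBase with miRDeep2 on ARS-UCD1.2. The deposited signal, made by the authors, is CPM scaled by TMM factors and not raw counts. The worth of 1 read was found per library from the spacing of low values, which turned at least 94.7% of the values checked into whole reads (tolerance 0.02 reads), and 20 of 20 simulated libraries gave back their total. Recomputed and deposited TMM factors were within 6.7e-05 of each other.

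HI and MOD were compared with limma 3.58.1 in R 4.3.3 with a trended prior, on log2(CPM + 1), over 419 miRNAs kept by filterByExpr of edgeR 4.0.16, a scale on which changes of low miRNAs are understated. Thresholds were those of the study's methods, FDR < 0.1 and fold change > 1.5. In simulated data with 200 of 419 miRNAs changed 1.5-fold, 181 were recovered at FDR < 0.1 with 11 false calls. Permutation tests were two-sided with 1e+05 resamples, or exact over 9 libraries. Alternatives were edgeR's quasi-likelihood test, DESeq2 1.42.0 and limma-voom on recovered reads, other scalings, filters, a pseudocount of 0.1, covariates and leaving out each calf. The label number range, a block of 4 groups, is formed by the last digits of the calf labels. The miRNAs named are both arms, the 6 markers, the 5 most correlated with each arm other than its partner, and list members at FDR < 0.1; others in the lists were named after their values were seen. The members and lists were chosen with earlier results of these data known. Each calf gave 1 library. No sequences were used here.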

Additional observations from a re-analysis of the deposited data

How the results depend on the processing

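No paired analysis was possible because the calves' labels hold no pairing across diets, and the replicate numbers used here only follow the order of deposit. Neither arm passed FDR < 0.1 and fold change > 1.5 under any of the 15 alternatives or in the 30 fits that left out 1 calf each. With upper quartile normalization the log2 fold change was -0.15 for the 5p arm (limma, unadjusted p = 0.0491, FDR = 0.264) and -0.12 for the 3p arm. The signs turned in some settings. For miR-126-3p the log2 fold change was 0.00033 with limma-voom, 0.047 on total counts and 0.0090 with miR-486 as a covariate, and -0.041 to 0.0028 over the fits without 1 calf. For miR-126-5p it was 0.019 on total counts and 0.0040 in the 21 libraries alone, a subset added after seeing the data, and -0.063 to -0.0089 over the fits without 1 calf, the last without HI replicate 15. The difference in balance was 0.0050 in the 21 libraries and 0.012 when centred within label number range, and -0.049 to -0.0068 without 1 calf. The r between the arms stayed between 0.57 and 0.82 in all settings, and between 0.59 and 0.68 without 1 calf. Of the 12 marker relations 1 passed FDR < 0.1 by Pearson's r, but 2 on total counts, 3 in the 21 libraries and 2 without the 2 calves farthest from the marker's median; by Spearman's rho these counts were 3, 2, 4 and 3. Pearson's r also changed sign for some relations, those of the 3p arm with miR-145 (0.12 over 30 calves, 0.54 in the 21, -0.72 in the 9), miR-199a-3p (0.35 over 30 calves, -0.0016 in the 9), miR-486 (-0.012 on total counts) and miR-375 (-0.031 in the 21), and of the 5p arm with miR-143 (-0.020 on total counts), miR-145 (0.083 in the 21, 0.12 without 2 calves), miR-199a-3p (0.042 on total counts, 0.11 in the 21, 0.28 without 2 calves), miR-486 (-0.012 in the 21, -0.092 without 2 calves) and miR-375 (-0.13 on total counts, -0.0058 in the 21). The causes were not tested. Depth did not limit the arms, with at least 5681 reads each.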

Other observations

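The miRNAs that ran most opposite to miR-126 across calves were named after their values were seen. For miR-126-5p the lowest r over the 30 calves were those of miR-3956 (-0.57), let-7e (-0.56), miR-432 (-0.54), miR-382 (-0.53) and miR-320a (-0.51), and for miR-126-3p those of miR-6119-5p (-0.50), miR-495 (-0.48), miR-374b (-0.48), miR-411c-5p (-0.47) and miR-217 (-0.47). On total counts each was weaker, from -0.06 for miR-374b to -0.45 for miR-3956, with miR-432 at -0.19, miR-382 at -0.20 and miR-495 at -0.19. Within the 21 libraries they ran from -0.11 for miR-374b to -0.63 for miR-217. Several of these miRNAs, among them miR-432 and miR-382 for the 5p arm and miR-495 for the 3p arm, belong to the imprinted region that also holds DLK1. Of the 417 tested miRNAs other than the arms, 57 belong to that region. The mRNA of DLK1 was not measured in these libraries, and a link of miR-126 to it was not tested.

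That region, taken as the miRNA genes between BEGAIN and DIO3 as RefSeq places them on ARS-UCD2.0, held 57 tested miRNAs, which together took 6.56% to 11.6% of an HI library and 7.37% to 10.6% of a MOD library. With miR-126-3p 50 of the 57 had an r below 0 (median -0.19), against 173 of the 360 tested miRNAs outside the region (median 0.02). Within the 21 libraries the count was 49 of 57 and 155 of 360. With miR-126-5p it was 34 of 57 (median -0.05) against 160 of 360. On total counts the excess was smaller, with 36 of 57 against 135 of 360 for the 3p arm and 29 of 57 against 138 of 360 for the 5p arm. The miRNAs of the region share libraries and are transcribed together, so they are not independent points, and no test was made.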
